A study of Aedes aegypti with 48 samples.

Results

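The genes described here are 36 gene identifiers of the yellow fever mosquito, Aedes aegypti, that the study annotated with the Gene Ontology (GO) term DNA repair among the transcripts lower in a cycle (Cyc) knockout 1 hour after lights on (zeitgeber time ZT1). The list of that term named 53 genes, but the copy used here is cut off after 36 of them, so the remaining genes, which carry higher identifier numbers, are not analysed here. All 36 were among the 19804 gene identifiers of the count files, and all 36 passed the filter on low counts at each time point. Because the genes were chosen by their difference between knockout and wild type at ZT1, their ZT1 values, calls included, are given only as a description, and results for them rest on ZT5, ZT9 and ZT13, whose libraries the list did not use. Those times compare the same lines, so genes chosen as lower at ZT1 can stay lower whatever their function. The shares over all genes given below are not limited to genes lower at ZT1. They therefore do not set repair genes apart from other genes chosen in that way.

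Both lines were of the Liverpool strain: a homozygous Cyc knockout (KO, AeCyc-/-), which lacks a functional clock, and the wild type (WT). Females were collected 5 days after emergence under 12 hours of light and 12 hours of darkness at ZT1, ZT5, ZT9 (all in the light) and ZT13 (in the dark), and each library came from a pool of 10 whole bodies, with 6 libraries per genotype and time point. A single knockout line was studied, so an effect of Cyc loss and any other difference between the 2 lines cannot be told apart. The study's methods mention that adult females of the colony received sheep blood through a membrane feeder, and do not say whether the females collected for RNA had fed. Messenger RNA was enriched by its poly-A tail and sequenced, and the deposited value is the number of reads counted on each gene.

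DNA repair is a set of pathways that act on different kinds of damage. Nucleotide excision repair cuts out a stretch of strand around a bulky lesion, base excision repair removes one altered base, mismatch repair corrects copying errors, homologous recombination mends breaks from an intact copy, and the Fanconi anemia pathway handles covalent links between the strands. In adult females the ovary holds the germline, in which meiotic recombination takes place, and in other animals many repair genes are transcribed strongly in dividing and germline cells. The 36 genes have no names in the reference table used here, so roles below are the GO and KEGG terms under which the study listed the same identifiers, and no sequence is shown.

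Between 10670669 and 33232780 reads per library were counted on genes (median 26210624), of which 12863 to 54558 fell on the 36 genes. The library labelled KO ZT13 replicate 1 held the same counts as the one labelled WT ZT9 replicate 2. It was left out of every value below, which leaves 47 libraries and 5 KO libraries at ZT13. It did enter the scaling of the CPM values, whose factors were computed over all 48 libraries. Values with it, or without WT ZT9 replicate 2, are given where they matter. Cyc itself (AAEL002049) was lower in KO by log2 values of -0.92 (ZT1), -1.04 (ZT5) and -0.37 (ZT13) (adjusted p = 1.54e-05, 6.30e-09 and 0.000979, edgeR's quasi-likelihood test), whereas at ZT9 the value was -0.11 (adjusted p = 0.281), so its mRNA does not separate the labels at ZT9. Of 12 gene identifiers taken as ovary and germline markers, 11 were in the files. At each of the 4 time points, 7 of those 11 were lower in KO and 0 higher. Over all genes tested, 22.7%, 15.5%, 16.7% and 17% were lower from ZT1 to ZT13. The median log2 fold changes of the 11 were -0.31, -0.19, -0.20 and -0.19. The markers were not uniform: AAEL006977 (taken as the vitellogenin receptor), AAEL012107 (nanos) and AAEL013233 (Piwi family) were called at no time point. A marker of the testis stayed at 0.514 CPM or less in every library (CPM, the reads of a gene relative to the library's size, which was scaled by the trimmed mean of M-values, TMM).

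At ZT1, where the list was chosen, the values of the 36 genes are as follows. Their summed level lay between 1133 and 1428 CPM in KO (median 1262) and between 1511 and 1639 CPM in WT (median 1565), so that the groups were separate. The median log2 fold change of KO against WT was -0.34, and single genes ran from -0.9997 to -0.12. By edgeR, 33 of 36 passed an adjusted p of 0.05 as lower and 0 as higher, against 22.7% and 24.5% of the 11535 genes tested, and in 18 the groups did not overlap, against 11.7%. The study used DESeq2, and with that tool the listed genes nearest the threshold were AAEL003897 (adjusted p = 0.0520 when recomputed here), AAEL011425 (0.0407), AAEL011993 (0.0334) and AAEL013179 (0.0328). On the other side lay AAEL005870 (0.0732) and AAEL000425 (0.0922), which the study lists under DNA repair at a later time point and not at ZT1. These values come from the contrast that chose the genes and carry no weight as support.

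At ZT5 most of the DNA repair genes were lower in KO than in WT. Of 36 tested, 22 were called lower and 0 higher at an adjusted p below 0.05 (edgeR's quasi-likelihood test, with p-values adjusted over 11737 genes by the Benjamini-Hochberg method), where 15.5% of all genes tested were lower and 15.5% higher. The median log2 fold change was -0.21, against 0.01 over all genes tested, and values ran from -0.58 to 0.04, with 34 of 36 below 0. In 12 of the 36, every KO library lay below every WT library, as did 6.65% of all genes. DESeq2 also called 22 lower and 0 higher, and 0 genes of the 36 were higher at an unadjusted p below 0.05. The summed level was 1288 to 1523 CPM in KO (median 1409) and 1528 to 1635 CPM in WT (median 1612).

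At ZT9 the same comparison called 21 of 36 lower and 0 higher, against 16.7% lower and 16.3% higher among 11673 genes tested. The median log2 fold change was -0.28, against 0.00 over all genes, and values ran from -1.24 to 0.08, with 35 of 36 below 0. In 7 genes the groups did not overlap, against 4.75% of all genes. DESeq2 called 23 lower and 0 higher, and 0 were higher at an unadjusted p below 0.05. The count dropped to 12 without KO ZT9 replicate 5, without KO ZT9 replicate 6 or without WT ZT9 replicate 1, and was 30 without WT ZT9 replicate 4. Without the library that carries 2 labels (WT ZT9 replicate 2) it was 18. Over all genes tested, 1949 were lower at ZT9, and 1329 without KO ZT9 replicate 6 or 2368 without WT ZT9 replicate 4. Summed levels overlapped at ZT9 alone: KO ran from 1244 to 1521 CPM (median 1456) and WT from 1397 to 1715 CPM (median 1634), where the lowest WT value is that of replicate 4 and the next was 1581 CPM.

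At ZT13, in the dark, 20 of 36 were called lower and 0 higher, against 17% lower and 18.6% higher among 11530 genes tested. The median log2 fold change was -0.22, against 0.00 over all genes, and values ran from -1.10 to 0.02, with 34 of 36 below 0. In 6 genes none of the 5 KO libraries reached the lowest of the 6 WT libraries, against 7.79% of all genes. DESeq2 called 20 lower and 0 higher, and 0 were higher at an unadjusted p below 0.05. The count was 11 without KO ZT13 replicate 3, 13 without KO ZT13 replicate 6 and 13 without WT ZT13 replicate 3. With KO ZT13 replicate 1 included as labelled, it was 6. Over all genes tested, 1955 were lower at ZT13, and 1481 without KO ZT13 replicate 3 or 2182 without KO ZT13 replicate 4. Summed levels ran from 1348 to 1569 CPM in KO (median 1506) and from 1595 to 1656 CPM in WT (median 1603).

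**Figure D1:**
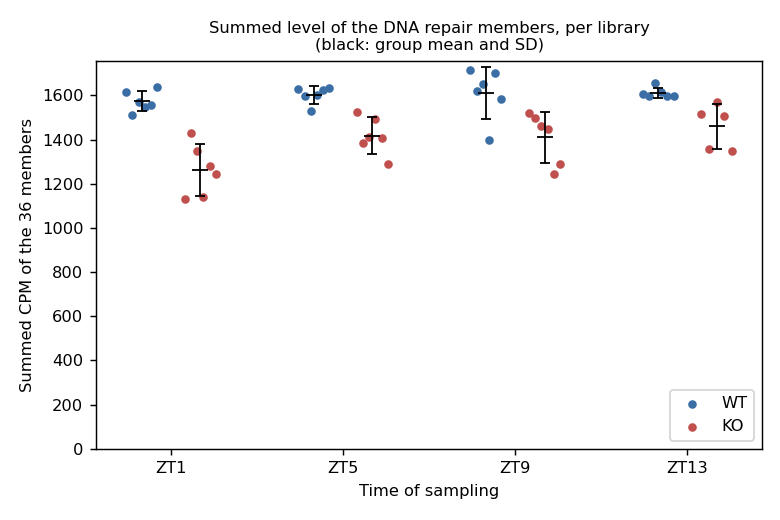
Summed level of the 36 DNA repair genes in each library (vertical axis, CPM from 0) by time of sampling, with WT in blue, KO in red and the group mean and SD in black. KO lies below WT without overlap at ZT5, ZT13 and ZT1, of which ZT1 chose the genes. At ZT9 WT replicate 4 (1397 CPM) falls inside the KO range.

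Of the 11 ovary and germline markers, 7 were lower in KO and 0 higher at each of ZT5, ZT9 and ZT13, not always the same ones. The part of the 11 markers in these results was not tested. Their summed level was 2175 to 2795 CPM in KO and 2808 to 3005 CPM in WT at ZT5. At ZT9 it was 2061 to 2702 CPM against 2522 to 3205 CPM, and at ZT13 2355 to 2779 CPM against 2836 to 3148 CPM. None of the 11 was at 0. AAEL006977 (taken as the vitellogenin receptor), AAEL012107 (nanos) and AAEL013233 (Piwi family) were called at none of these times, and AAEL013233 had positive log2 fold changes (0.04, 0.10 and 0.12). Those lower at each time include AAEL004978 (taken as vasa), AAEL007823 (Ago3), and AAEL008098 and AAEL013227 (Piwi family). Some markers of the fat body and the eye were higher in KO. Over all genes tested, 15.5%, 16.3% and 18.6% were higher from ZT5 to ZT13. Of the 4 fat body markers, 3 were higher at both ZT5 and ZT9 and 1 at ZT13. None was lower, and the median log2 fold changes were 1.80, 0.90 and 0.69. AAEL009955, taken as lipophorin, had only 0.20, 0.63 and 0.36. It was not called at ZT5 and was the 1 called at ZT13. AAEL010434, taken as vitellogenin A1, had 1.661, 1.075 and 0.238. At ZT1 4 of the 4 were higher, with a median of 3.48. The summed level of the 4 was 2240 to 3046 CPM in KO and 1772 to 2545 CPM in WT at ZT5, with medians of 2485 and 2258 CPM. It was 2735 to 4177 against 1760 to 2651 CPM at ZT9, and 3189 to 4236 against 2252 to 3074 CPM at ZT13. Of the 3 eye markers (opsins), 2 of 3 were higher at ZT5, 1 of the 2 tested at ZT9 and 3 of 3 at ZT13, with medians of 3.34, 1.53 and 3.88. Their summed level was 7794 to 11384 CPM in KO and 7489 to 10425 CPM in WT at ZT5, 8199 to 10831 against 7857 to 11736 CPM at ZT9, and 8749 to 11983 against 7037 to 8508 CPM at ZT13. The opsin AAEL006259 had log2 fold changes of only 0.14, 0.02 and 0.40 and passed at ZT13 alone. The median at ZT9 lies between its value and the 3.04 of AAEL005621. The 1 salivary gland marker tested passed at none of the 3 time points (0.23, 0.22 and 0.26). The part of these markers in the results was not tested. In whole bodies, fewer cells of a type and less RNA per cell cannot be told apart. The share of reads aligned to more than 1 place, which enter no gene count, had medians of 33.5%, 30.5% and 35.5% in KO and of 33.5%, 37.1% and 40.4% in WT from ZT5 to ZT13, and its part was not tested either.

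Over the 3 time points that were tested, 13 genes were called lower at each, 9 at 2 of them, 6 at 1 and 8 at none. The share called lower at all 3 was 8.74% over the 11458 genes tested throughout. In 32 of the 36 all 3 log2 fold changes were negative. The 13 genes were AAEL002250, AAEL002581, AAEL004039, AAEL004171, AAEL005888, AAEL006209, AAEL006715, AAEL011715, AAEL011993, AAEL012355, AAEL013205, AAEL013822 and AAEL014774. Whichever single library was left out, 14 genes were lower at ZT5, 12 at ZT9 and 10 at ZT13, against 10.9%, 10% and 11.5% of all genes. Of the 13, 6 (AAEL006209, AAEL006715, AAEL011715, AAEL012355, AAEL013205 and AAEL014774) were lower in every such comparison at all 3 time points, which held for 5.08% of the 11458 genes. The 8 genes called at none were AAEL000201, AAEL001324, AAEL003229, AAEL003893, AAEL004562, AAEL008960, AAEL010913 and AAEL014900. A gene that misses the threshold is not shown to be the same in both lines.

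**Figure D2:**
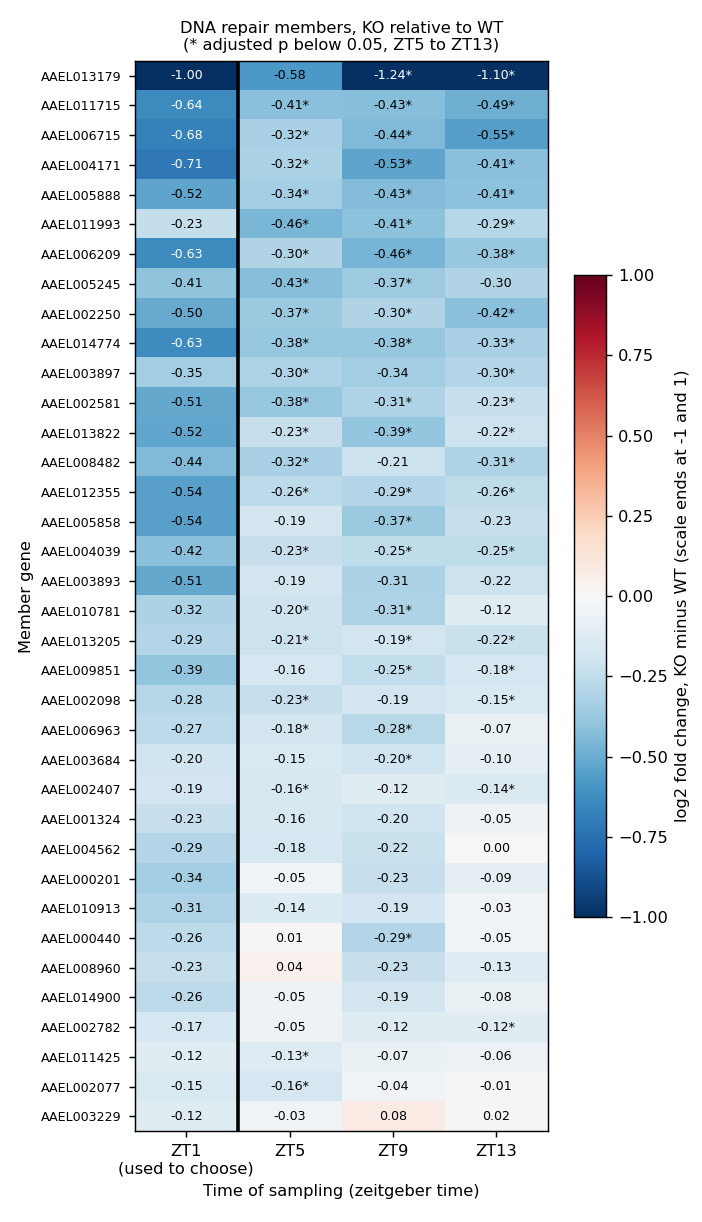
Log2 fold change of KO against WT for each of the 36 genes (one line per gene) at the 4 time points, with lower values in KO in blue and a star where the adjusted p was below 0.05. ZT1, left of the black line, chose the genes and carries no star, and the genes are ordered by their mean over ZT5, ZT9 and ZT13, from AAEL013179 to AAEL003229 (0.02).

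**Figure D3:**
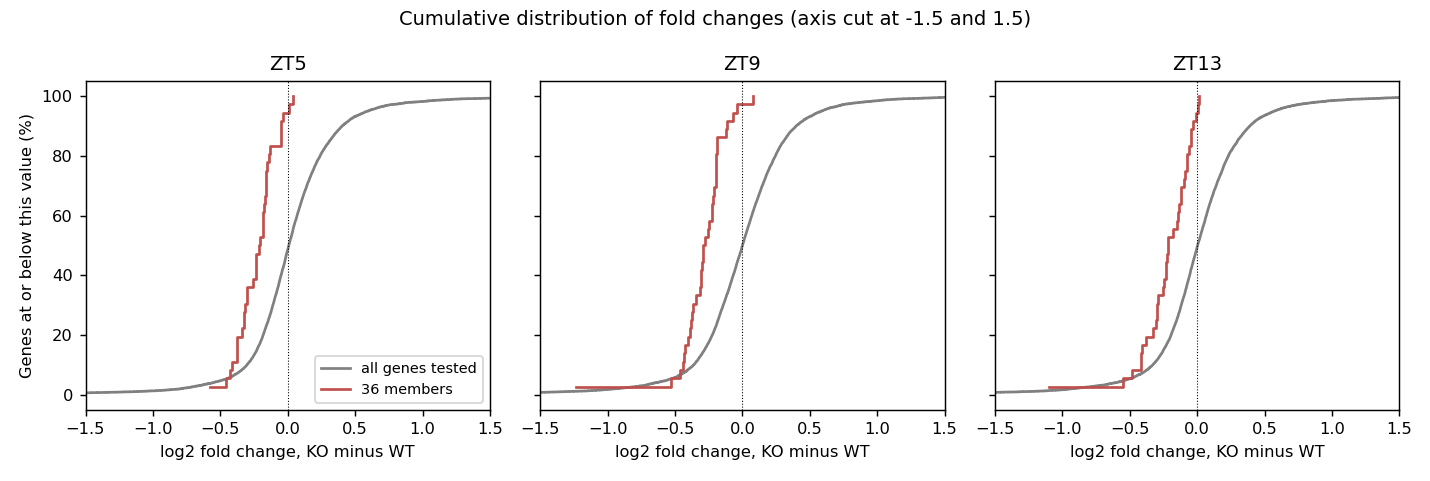
Cumulative share of genes (vertical axis, percent) at or below each log2 fold change of KO against WT (horizontal axis) at ZT5, ZT9 and ZT13, for the 36 DNA repair genes in red and all genes tested in grey. The red curves lie to the left of the grey ones, with medians of -0.21, -0.28 and -0.22 against 0.01, 0.00 and 0.00.

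The Fanconi anemia pathway of KEGG held 9 of the 36 genes. Of these 6 were lower in KO at ZT5 and 7 at both ZT9 and ZT13, with median log2 fold changes of -0.23, -0.30 and -0.25. Over all genes tested, 15.5%, 16.7% and 17% were lower at ZT5, ZT9 and ZT13, and the counts of the terms below stand beside the same shares. AAEL006715 and AAEL002250, both also listed under damaged DNA binding and DNA synthesis, had values of -0.32, -0.44 and -0.55 and of -0.37, -0.30 and -0.42 at ZT5, ZT9 and ZT13, and fell at each. AAEL004562, which carries the same 3 terms as AAEL006715, was called at none, with values of -0.18, -0.22 and 0.00. AAEL009851, a nucleotidyltransferase (an enzyme class that includes DNA polymerases), fell at ZT9 (-0.25) and ZT13 (-0.18) and had a value of -0.16 at ZT5. AAEL002098, an endonuclease also listed under nucleotide excision repair, fell at ZT5 (-0.23) and ZT13 (-0.15) and had a value of -0.19 at ZT9. AAEL005858, listed under mismatch repair as well, was called only at ZT9 (-0.37), with -0.19 at ZT5 and -0.23 at ZT13.

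Homologous recombination, in the KEGG list, held 5 genes, 3 of them shared with the Fanconi anemia pathway. At ZT5 4 of the 5 were lower, at ZT9 4 and at ZT13 3. The 3 shared genes fell at every time point tested: AAEL014774 by log2 values of -0.38, -0.38 and -0.33, AAEL011993, an endonuclease, by -0.46, -0.41 and -0.29, and AAEL004039, a DNA helicase (an enzyme that unwinds the strands), by -0.23, -0.25 and -0.25. AAEL005245 has an ATP-dependent activity on DNA and a telomere term. It fell at ZT5 (-0.43, with no overlap of the groups) and ZT9 (-0.37, likewise), and at ZT13 the value was -0.30 (adjusted p = 0.103). AAEL014900, which shares its telomere term, passed the test at none (-0.05, -0.19 and -0.08).

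Terms for recombination and double-strand break repair outside those KEGG lists covered 9 further genes, of which AAEL002782 is described under base excision repair. Recombination at large (11 genes of the ZT1 list) had 7 lower at each of ZT5, ZT9 and ZT13, and double-strand break repair (8 genes) had 3, 4 and 4. AAEL011715, listed under recombination and condensed chromosomes, fell by -0.41, -0.43 and -0.49, and AAEL002581, which shares those terms, by -0.38, -0.31 and -0.23. A pair of endonucleases with the recombination term also fell: AAEL006209 at each time point (-0.30, -0.46 and -0.38) and AAEL008482 at ZT5 (-0.32) and ZT13 (-0.31), with -0.21 at ZT9. AAEL003684, a helicase that binds damaged DNA, was called at ZT9 (-0.20), with -0.15 at ZT5 and -0.10 at ZT13. The remaining 3 passed the test at no time point: AAEL010913 (-0.14, -0.19 and -0.03), the helicase AAEL008960 (0.04, -0.23 and -0.13) and AAEL003229 (-0.03, 0.08 and 0.02). These 3 all carry the double-strand break term, so that genes under it ranged from lower at each time point (AAEL002581, AAEL011993, AAEL014774) to called at none.

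Nucleotide excision repair held 7 genes, of which 5 were lower at ZT5, 1 at ZT9 and 4 at ZT13. Over all genes tested the shares were 15.5%, 16.7% and 17%, so the count at ZT9 was not above its share. AAEL013205, a helicase, fell at each time point by similar amounts (-0.21, -0.19 and -0.22) and was the gene called at ZT9. AAEL002407 fell at ZT5 (-0.16) and ZT13 (-0.14), where its groups did not overlap, and had a value of -0.12 at ZT9. AAEL003897 fell at ZT5 (-0.30) and ZT13 (-0.30), and at ZT9 its larger value of -0.34 came with a larger standard error (0.13, adjusted p = 0.0598). AAEL003893, a damaged DNA binding gene like AAEL003897, had values of -0.19, -0.31 and -0.22, none of which passed. AAEL001324 was at -0.16, -0.20 and -0.05, again with none passing. AAEL002077 was called at ZT5 alone (-0.16) and is described with the time course below. The median log2 fold changes of the 7 genes were -0.19, -0.19 and -0.15, so that the low count at ZT9 went with a median no smaller than at the other times.

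Base excision repair held 3 genes. AAEL010781, an endonuclease, fell at ZT5 (-0.20) and ZT9 (-0.31) and had a value of -0.12 at ZT13, and AAEL002782 was called at ZT13 alone (-0.12), with -0.05 and -0.12 at ZT5 and ZT9. AAEL013179 had the lowest log2 fold changes among the 36, -0.58 ± 0.31 (SE), -1.24 ± 0.29 and -1.10 ± 0.37 in the order ZT5, ZT9, ZT13, with adjusted p values of 0.172, 0.00712 and 0.0314. It is also the gene with the fewest reads. At ZT9, KO libraries held 4 to 13 reads (median 6.5) and WT libraries 13 to 29 (median 20), and at ZT13 KO held 2 to 12 (median 8) and WT 6 to 33 (median 13). At ZT5 KO held 7 to 25 (median 11) and WT 18 to 27 (median 21.5). On the CPM scale the groups did not overlap at ZT9 (0.142 to 0.466 in KO and 0.478 to 1.107 in WT) and overlapped at ZT5 and ZT13.

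The other 8 genes carry no term for a named repair route, and 6 of them have terms for replication, chromatin or damage sensing. AAEL005888, a nucleotidyltransferase of DNA replication, fell at each time point (-0.34, -0.43 and -0.41). AAEL004171, an ATP-dependent sensor of DNA damage, also fell at each (-0.32, -0.53 and -0.41), as did AAEL013822, whose terms name only helicase and other activities on DNA (-0.23, -0.39 and -0.22). Of the 2 ATP-dependent chromatin remodelers, AAEL012355 fell at each (-0.26, -0.29 and -0.26) and AAEL006963, which also has a replication term, at ZT5 (-0.18) and ZT9 (-0.28) but with a value of -0.07 at ZT13. Replication terms on their own did not go with a fall throughout. The replication helicase and endonuclease AAEL000201 was called at none (-0.05, -0.23 and -0.09), AAEL011425 at ZT5 alone (-0.13, then -0.07 and -0.06), and AAEL000440, which has no term beyond DNA repair, at ZT9 alone (0.01, -0.29 and -0.05). Across all roles, replication held 8 of the 36 genes, of which 5, 3 and 3 were lower, and helicase activity 6, of which 3, 4 and 3 were lower at ZT5, ZT9 and ZT13.

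Among genes with a mean of at least 1 on the log2 CPM scale, AAEL011715, AAEL006715 and AAEL004171 had the lowest mean fold change over the 3 time points, and their values by library are as follows. For AAEL006715 at ZT5, KO libraries ran from 32.1 to 40.5 CPM (median 35.4) and WT from 40.9 to 47.5 (median 46.6). At ZT9 KO ran from 27.3 to 41.7 CPM (median 34.01) and WT from 44.1 to 49.2 (median 46.1). At ZT13 the 5 KO libraries were at 36.6, 32.5, 32.4, 35.1 and 29.6 CPM and WT ran from 43.7 to 52.4 (median 48.5). Thus no KO library reached the lowest WT library at any of the 3 time points. At ZT1, which chose the gene, KO ran from 26.4 to 32.1 CPM and WT from 45.3 to 48.4. The log2 fold changes were -0.32 ± 0.07 (SE), -0.44 ± 0.09 and -0.55 ± 0.07, with adjusted p values of 0.00255, 0.00220 and 5.15e-05.

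AAEL011715 was at 5.70 to 8.72 CPM in KO (median 6.85) and 8.22 to 10.9 in WT (median 9.69) at ZT5. At ZT9 KO ran from 5.51 to 8.48 CPM (median 6.73) and WT from 7.94 to 11.001 (median 8.65). At ZT13 KO libraries were at 8.04, 6.08, 6.00, 7.66 and 7.75 CPM and WT ran from 7.06 to 11.5 (median 9.75). Here the groups overlapped at each of the 3 time points, by a few libraries, while the KO median stayed below the lowest WT library at ZT5 and ZT9. The log2 fold changes were -0.41 ± 0.11, -0.43 ± 0.12 and -0.49 ± 0.13 (adjusted p = 0.0121, 0.0139 and 0.0114).

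AAEL004171 was at 6.33 to 9.06 CPM in KO (median 7.85) and 8.59 to 10.8 in WT (median 9.45) at ZT5. At ZT9 KO ran from 5.29 to 8.97 CPM (median 8.20) and WT from 9.50 to 13.3 (median 10.4), without overlap. At ZT13 the KO libraries were at 8.29, 6.88, 9.28, 7.87 and 6.08 CPM, of which 2 lay above the lowest WT library (WT 8.22 to 12.7, median 9.84). Of the 3 time points, then, ZT9 is the one at which KO and WT were apart. The log2 fold changes were -0.32 ± 0.10, -0.53 ± 0.13 and -0.41 ± 0.12 (adjusted p = 0.0296, 0.00708 and 0.0193). At ZT5 the call was lost in 6 of the 12 comparisons that left out 1 library, and with KO ZT13 replicate 1 included the adjusted p at ZT13 was 0.0814.

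At the other end of the order were AAEL011425, AAEL002077 and AAEL003229. AAEL003229 ran from 96.0 to 108 CPM in KO (median 102) and 99.1 to 111 in WT (median 104) at ZT5, and from 110 to 121 in KO (median 111) and 97.1 to 112 in WT (median 108) at ZT9. At ZT13 the KO libraries were at 108, 118, 119, 111 and 111 CPM and WT ran from 106 to 113 (median 112). The groups overlapped throughout, and the adjusted p values were at least 0.205. AAEL011425 ran from 67.8 to 77.1 CPM in KO (median 74.7) and 77.9 to 83.4 in WT (median 81.0) at ZT5, where the groups were apart (log2 -0.13 ± 0.04, adjusted p = 0.0264). They overlapped at ZT9 (71.1 to 80.0 in KO and 74.3 to 87.4 in WT) and at ZT13, where the KO libraries were at 76.6, 69.2, 77.6, 87.2 and 66.9 CPM and WT at 76.8 to 79.7 (median 77.6).

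**Figure D4:**
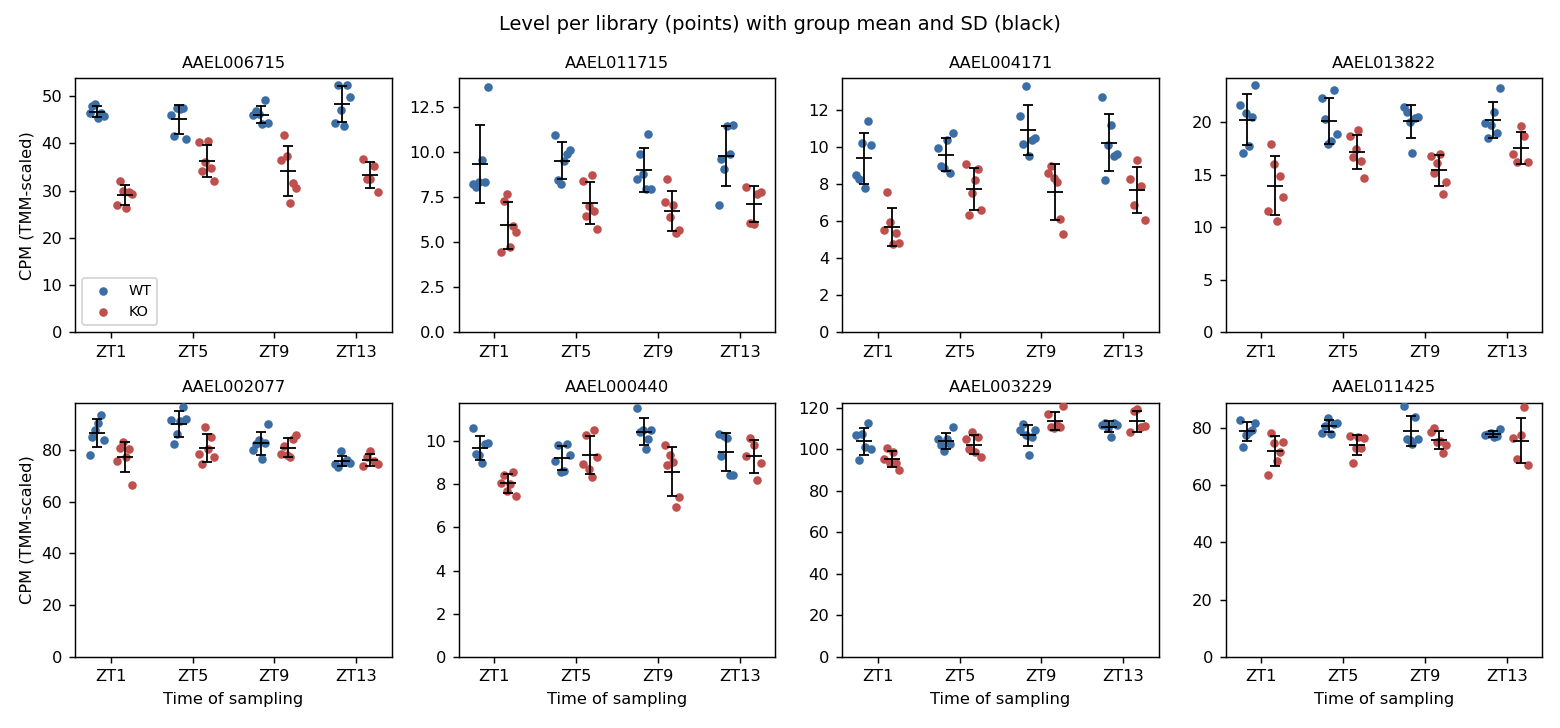
Level of 8 of the genes in each library (points, CPM from 0) by time of sampling, with WT in blue, KO in red and the group mean and SD in black. AAEL006715 is lower in every KO library than in every WT library at ZT5, ZT9 and ZT13, and also at ZT1, which chose the genes. AAEL002077 falls in WT from a mean of 90.1 CPM at ZT5 to 75.8 CPM at ZT13.

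The time course asked whether the genes change between ZT5, ZT9 and ZT13 within a line. In WT, 1 of the 36 genes was called (edgeR's quasi-likelihood F-test of any difference), against 9.86% of 11860 genes tested, and 2 had an unadjusted p below 0.05. That gene was AAEL002077, listed under nucleotide excision repair and damaged DNA binding. Its WT libraries ran from 82.5 to 96.7 CPM at ZT5 (median 91.4), from 76.7 to 90.0 at ZT9 (median 82.6) and from 73.7 to 79.7 at ZT13 (median 75.2). The highest values were those at ZT5, and no library at ZT13 reached the lowest at ZT5. The test gave an adjusted p of 0.00152, and ZT13 was lower than ZT5 by a log2 value of -0.25 (adjusted p = 0.000505), a fall called in 5.33% of the genes tested. At ZT1, which was not in the test, WT ran from 78.1 to 93.5 CPM (median 86.4).

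In KO the levels of AAEL002077 lay closer together, at 74.6 to 89.0 CPM at ZT5 (median 79.6), 77.3 to 85.9 at ZT9 (median 80.0) and at 73.9, 77.4, 79.6, 75.9 and 74.8 CPM at ZT13. Its KO effect was -0.16 ± 0.05 at ZT5 (adjusted p = 0.0248), -0.04 ± 0.05 at ZT9 and -0.01 ± 0.04 at ZT13, so the one call fell at the time when WT was highest. The groups overlapped there too, with 2 KO libraries above the lowest WT library. The test of genotype by time, described below, gave an adjusted p of 0.490, so this difference did not pass. At ZT5 the call was lost in 3 of the 12 comparisons that left out 1 library.

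AAEL000440, for which WT had the second lowest p, ran from 8.58 to 9.87 CPM in WT at ZT5 (median 9.22), 9.62 to 11.5 at ZT9 (median 10.5) and 8.44 to 10.3 at ZT13 (median 9.73) (adjusted p = 0.182). KO libraries ran from 8.36 to 10.5 CPM at ZT5 (median 9.10) and 6.93 to 9.83 at ZT9 (median 8.97), and at ZT13 were at 9.31, 10.1, 9.83, 8.20 and 9.01 CPM. KO lay below WT at ZT9 (log2 -0.29 ± 0.09, adjusted p = 0.0230), with 1 KO library above the lowest WT library, and not at ZT5 or ZT13. Its test of genotype by time gave an adjusted p of 0.495.

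In KO, 0 of the 36 genes were called over ZT5, ZT9 and ZT13 by edgeR, against 2.2% of 11892 genes tested, and 1 had an unadjusted p below 0.05. This was AAEL003229 (adjusted p = 0.112), which was higher at ZT9 than at ZT5 by a log2 value of 0.15 and which DESeq2's likelihood ratio test called (adjusted p = 0.00887). Its WT levels, given above, had medians of 104, 108 and 112 CPM (adjusted p = 0.266). The next were AAEL013822 and AAEL006963, each with an adjusted p of 0.435. AAEL013822 was at 14.7 to 19.2 CPM in KO at ZT5 (median 17.1), 13.2 to 16.9 at ZT9 (median 15.6) and at 17.001, 16.2, 19.7, 18.7 and 16.2 CPM at ZT13, against WT medians of 19.6, 20.5 and 19.8 CPM. AAEL006963 was at 15.2 to 18.4 CPM in KO at ZT5 (median 17.6), 13.2 to 18.1 at ZT9 (median 16.95) and at 20.8, 15.8, 19.7, 19.5 and 19.9 CPM at ZT13, against WT medians of 19.8, 19.3 and 19.5 CPM. In both, the KO levels at ZT9 reached lower than those at ZT5 and ZT13, and neither difference passed the test.

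The test of genotype by time called 0 of the 36 genes, against 0.285% of 12268 genes (35 genes), with 2 at an unadjusted p below 0.05 (AAEL002077 and AAEL000440) and 0 called by DESeq2's likelihood ratio test. The helicase AAEL008960 came after those genes, with an adjusted p of 0.666. It ran from 32.2 to 40.8 CPM in KO (median 35.98) and 34.3 to 35.9 in WT (median 34.99) at ZT5, and from 28.2 to 36.4 in KO (median 33.4) and 30.8 to 46.4 in WT (median 38.1) at ZT9. At ZT13 its KO libraries were at 37.5, 39.6 and 40.3 CPM and at 28.7 and 28.4 CPM. The WT range was 35.8 to 39.7, so only 40.3 CPM lay above it, and 28.7 and 28.4 CPM lay below. For these 36 genes, counts called lower at ZT5, ZT9 and ZT13 therefore differ without any gene for which a difference in the KO effect between times was called.

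Another 20 genes stand under DNA repair in the study's lists for ZT5 or ZT9 and not among the 36, and 19 of them were tested. At ZT13, which did not choose them, 5 of 19 were lower in KO and 0 higher, with a median log2 fold change of -0.15, against 17% and 0.00 over all genes. The lowest was AAEL019831 (-0.61 ± 0.10, adjusted p = 0.000493), followed by AAEL025042, a helicase (-0.39 ± 0.07), AAEL024736, a double-strand break repair gene (-0.33 ± 0.06), and AAEL002822, a recombination gene (-0.33 ± 0.07). At ZT5 and ZT9, which chose them, 16 and 12 were lower. Of the 20, 11 have identifiers beyond the point where the ZT1 list is cut, so they may belong to its missing part.

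The study's ZT1 lists for DNA replication in KEGG and DNA replication initiation in GO held 18 genes that are not among the 36. The GO list for DNA replication, which was used for the replication genes among the 36, was not used here. Of these 9 were lower at ZT5 and 7 at both ZT9 and ZT13, with 1 higher at ZT9 (AAEL004302), and medians of -0.17, -0.24 and -0.16. The shares lower over all genes tested were 15.5%, 16.7% and 17%. The counts of the repair genes, 22, 21 and 20 of 36, are thus set beside 9, 7 and 7 of 18 for replication genes chosen in the same contrast. The study's ZT1 list of DNA repair genes that were higher in KO, as far as it is held here, gave 2. AAEL002800, a DNA polymerase epsilon, had group means of 95.1, 101 and 97.2 CPM in KO and of 30.4, 30.3 and 29.2 CPM in WT at the 3 later time points, with every KO library above every WT library and log2 fold changes of 1.63 ± 0.11, 1.73 ± 0.07 and 1.72 ± 0.10. AAEL014945 rose by 0.47, 0.70 and 0.66. Both were chosen as higher at ZT1, and they rose at each of the 3 later time points. None of the 36 was called higher at those times, but the 36 were chosen as lower in the same contrast. The opposite directions of the lists therefore carry no weight as support.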

How the data were processed

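RNA from pools of 10 whole females was sequenced in 48 libraries. Per the labels and the study's methods, the authors trimmed reads with Trim Galore 0.6.6, aligned them with HISAT2 2.2.1 to AaegL5_2, used SAMtools 1.11 and FastQC 0.11.9, and counted reads per gene with HTSeq 0.11.3. The deposited values are raw counts. None of the sources gives the strand option, so counts are uncertain where genes overlap. Counts are also uncertain for near-identical copies, because reads aligned to more than 1 place enter no gene count. The 5 summary lines that name no gene were left out, which leaves 18.4% to 31.7% of a library's total on genes.

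Counts were scaled with TMM factors, filtered with filterByExpr and tested with edgeR 4.0.16 (R 4.3.3), the quasi-likelihood test and Benjamini-Hochberg adjustment over all genes tested, within the libraries of each comparison. The standard error is the absolute log2 fold change over the square root of F. Log2 CPM used a prior count of 2. DESeq2 1.42.0, its size factors, no filter, a fit of all 47 libraries, the replicate number as a block and leaving out each library were alternatives. KO ZT13 replicate 1 was left out of the tests and group values. CPM values, by library and summed, used TMM factors computed over all 48 libraries, with that library included. P-values measure the spread between pools.

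The 36 genes and the other lists were chosen with earlier results of these data known. Every gene is named with its fold changes. Values by library are given for the 3 genes of lowest and of highest mean fold change, and the 3 of lowest p in each time test, among those whose log2 CPM averaged at least 1. Marker identifiers are general knowledge of the field and not annotated by the sources, except the opsins AAEL005621 and AAEL005625, which the study names. Of the gene identifiers 0 matched the reference table, so levels are not compared per length, and a search of promoters was not run. The samples' numbers were tested for pairing: deviations of same-numbered KO and WT libraries correlated between -0.137 and 0.161, with 1 of 23 pairs over 0.1, so they were not treated as pairs.

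On simulated counts with 200 genes changed 1.3-fold, 86 of 200 were recovered at ZT5 (11737 genes), 69 at ZT9 (11673), 97 at ZT13 (11530), 104 in the WT time test (11860), 85 in the KO time test (11892) and 47 in the test of genotype by time (12268). With 2-fold changes, 183, 175, 186, 174, 175 and 159 were recovered, and at most 12 other genes were called. Between KO and WT far more than 200 genes were called (1815 lower and 1821 higher at ZT5). The adjusted threshold was therefore stricter in the simulation, and its recovery can understate that of the KO comparisons.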

Additional observations from a re-analysis of the deposited data

Results flagged for a closer look

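In 88 groups of 5 or 6 libraries (the 10 genes with values by library and the summed level of the 36 genes, in 8 groups each), 6 held 1 library far from the others, and chance alone flags about 1 group in 20. AAEL011715 was at 13.6 CPM in WT ZT1 replicate 6, with the next library at 9.56 CPM. AAEL003229 was at 106 CPM in WT ZT13 replicate 4, where the next lowest was 110.4 CPM. AAEL013822 was at 17.1 CPM in WT ZT9 replicate 4, against 19.99 CPM in the next. AAEL006963 was at 15.8 CPM in KO ZT13 replicate 3, against 19.5 CPM in the next. The summed level of the 36 genes was 1656 CPM in WT ZT13 replicate 3, with the next highest at 1615 CPM, and 1528 CPM in WT ZT5 replicate 3, with the next lowest at 1598 CPM. Without WT ZT13 replicate 3, 13 of the 36 genes were called lower at ZT13, and without WT ZT5 replicate 3, 22 at ZT5.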

How the results depend on the processing

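The number of the 36 genes called lower in KO stayed between 17 and 22 at ZT5 (22 in the report), between 18 and 29 at ZT9 (21) and between 14 and 20 at ZT13 (20) under DESeq2's Wald test, DESeq2 size factors, no filter on low counts, a fit of all 47 libraries and the replicate block. With the block the counts were 17, 18 and 15, and no gene was called for time in KO or for genotype by time. Same-numbered libraries were not shown to be pairs, since 4 of 23 correlated best with their own number. With KO ZT13 replicate 1 included, 6 genes were lower at ZT13, and AAEL002077 changed sign to 0.0125. Leaving out 1 library in turn gave 16 to 28 genes at ZT5, 12 to 30 at ZT9 and 11 to 22 at ZT13. The counts over all genes moved too, with 1442 to 2121, 1329 to 2368 and 1481 to 2182 lower in KO. With 1 library left out, AAEL006963 stayed lower at ZT5 in 4 of 12 comparisons, AAEL013822 in 5 of 12 at ZT5 and 6 of 11 at ZT13, AAEL000440 in 9 of 12 at ZT9 and AAEL011425 in 10 of 12 at ZT5. Small values near 0 changed sign in this way: AAEL000440 at ZT5 ranged from -0.0302 to 0.0410, and at ZT13 AAEL002077 ranged from -0.0266 to 0.00634 and AAEL003229 from -0.00426 to 0.0313. In WT over time 1 gene was called under each alternative, also without WT ZT9 replicate 2. In KO over time DESeq2's likelihood ratio test called 1 gene (AAEL003229) where edgeR called 0, and leaving out each KO ZT13 library gave 0 throughout. Genotype by time called 0 under each alternative run. Over all genes that test called 35 by edgeR and 113 by DESeq2, and KO over time 262 and 580, or 160 with KO ZT13 replicate 1. The cause of these differences was not tested. At this depth and spread, simulated 1.3-fold changes were recovered in part only, so genes not called may have changed. The simulation changed fewer genes than were called between KO and WT, so it does not give the share missed there.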
